A study of Rattus norvegicus with 6 samples.

Results

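Chromosome 10 was examined as a distant partner of 1 gene promoter on chromosome 13, in 4C-seq libraries of rat cardiac endothelial cells. The regions were every listed EcoRI fragment of chromosome 10 in genome build rn5, 28731 fragments out of 794144 to 794360 rows per library over all chromosomes. They were chosen by chromosome alone, and the same 28731 fragments were listed in all 6 libraries. Of the libraries, 3 came from SS13BN rats (strain SS-13BN/Mcwi), a consomic line that carries chromosome 13 of the Brown Norway rat on the Dahl salt-sensitive background, and 3 came from SS rats (SS/JrHsdMcwi), the Dahl salt-sensitive strain itself. All libraries were made from passage 2 cells pooled from males and females and fixed with 2% formaldehyde for 10 min. The labels do not say whether the 3 libraries of a strain were separate cultures or animals. The p-values of tests over libraries therefore cover only how far these libraries differ from one another, and such differences may be technical. The binomial p-values below are computed within single libraries and hold no spread between libraries.

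In 4C-seq, fixed chromatin is cut and re-ligated, and fragments that were joined to a chosen viewpoint are amplified and sequenced. A fragment on another chromosome can be joined when both loci lay close together in some of the nuclei. Such contacts between chromosomes are sparse compared with contacts near the viewpoint, and they tend to come in broad zones rather than at single sites. In RefSeq's gene table for a later rat assembly, chromosome 10 carries genes of vascular interest, among them Ace, which codes for angiotensin-converting enzyme, Nos2, which codes for inducible nitric oxide synthase, and Pecam1, an endothelial adhesion molecule. Blood pressure loci have been mapped to it in crosses with Dahl salt-sensitive rats. The reference annotation at hand was of another build, so no gene or sequence was assigned to the positions below.

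In a consomic design of this kind chromosome 10 has the same SS origin in both strains, and only the chromosome that holds the viewpoint differs. The comparison between strains therefore asks whether the origin of chromosome 13 goes with a difference in which parts of chromosome 10 the promoter meets. The fragments of chromosome 10 ran without gaps from 0 to 112200500, with a median length of 2513 bp and a range of 6 to 154756 bp. Positions are given as the tables give them and may lie 1 base from those of a genome browser.

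The promoter captured more of chromosome 10 than of the rest of the genome in every library. A captured fragment is one that the deposited scores count as present in the library, and the scores do not say how many reads it had. Of the fragments of chromosome 10, 12.6% were captured in SS13BN 1 (95% Wilson interval 12.2% to 12.98%), 21.4% in SS13BN 2 (20.9% to 21.9%) and 10.5% in SS13BN 3 (10.1% to 10.8%). In SS the shares were 15.4% in SS 1 (14.96% to 15.8%), 13.1% in SS 2 (12.8% to 13.5%) and 14.1% in SS 3 (13.7% to 14.5%). The intervals cover counting error only. These shares rest on 3617, 6142 and 3004 captured fragments in SS13BN 1 to 3, and on 4418, 3778 and 4055 in SS 1 to 3.

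Divided by the captured share of the 19 other chromosomes apart from 13, capture of chromosome 10 was 1.28, 1.24 and 1.20 times as high in SS13BN 1 to 3, and 1.26, 1.33 and 1.20 times as high in SS 1 to 3. All 6 libraries lay above 1, and the mean was 1.25 ± 0.0516 (SD, n = 6). An exact two-sided sign-flip permutation test of the log2 ratio over the 6 libraries gave p = 0.03125, the smallest p that 6 libraries allow, and 0.0938 after Benjamini-Hochberg adjustment over the 3 comparisons of chromosome 10 with other parts of the genome. Chromosome 10 ranked 2nd of 20 chromosomes by mean, below chromosome 16 at 1.28 ± 0.0322 and above chromosome 3 at 1.23 ± 0.0191 (SD, n = 6). Within single libraries it ranked from 1st to 3rd. On chromosomes 16, 3, 19, 20, 5 and 8 all 6 libraries also lay above 1. On chromosomes 14, 15, 17, 18, 2 and X all 6 lay below 1. Any chromosome with 6 libraries on 1 side gets the smallest sign-flip p, so that p does not set chromosome 10 apart. The ratio to chromosome 16 was 0.979 ± 0.0222, with chromosome 10 higher in 1 of 6 libraries (exact sign-flip permutation p = 0.0938, adjusted p = 0.141). The ratio to chromosome 3 was 1.02 ± 0.0396, with chromosome 10 higher in 3 of 6 (exact sign-flip permutation p = 0.25, adjusted p = 0.25). These 3 chromosomes were thus not separated by the spread between libraries.

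**Figure D1:**
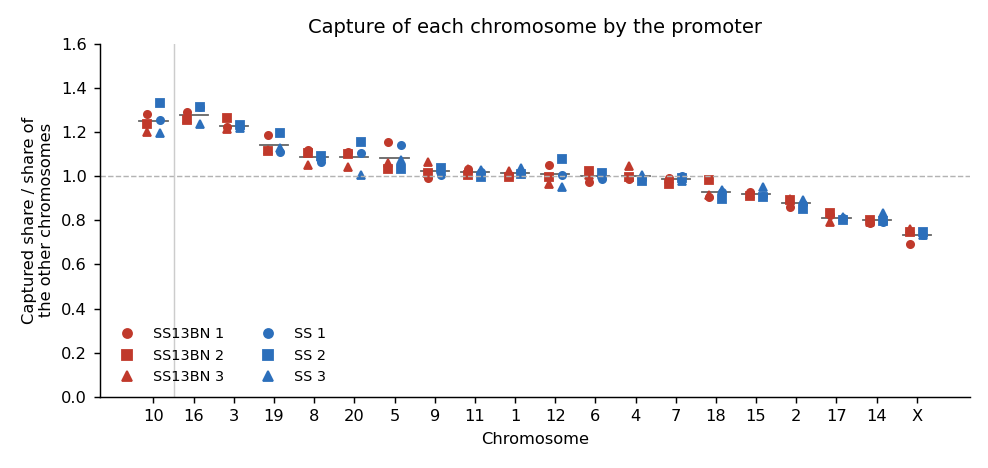
Captured share of each chromosome divided by the captured share of all others except 13, with chromosome 10 at the left and the rest in falling order. Each symbol is 1 library and each bar the mean of 6, and the symbols of chromosome 10 lie between 1.20 and 1.33.

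Short fragments were captured less often than long ones, and chromosome 10 had longer fragments than the other chromosomes, with a median of 2513 bp against 2176 bp. Fragments were therefore also compared within 10 length classes of equal size. Chromosome 10 was higher in all 60 pairs of class and library. In the class of the shortest fragments, 6.99% of those of chromosome 10 were captured on average against 5.14% elsewhere, a ratio of 1.37 ± 0.121 (SD, n = 6). In the class of the longest, the averages were 20.3% on chromosome 10 and 16.2% elsewhere, a ratio of 1.26 ± 0.0366. When expected capture was taken from fragments of like length, chromosome 10 stood at 1.20 ± 0.0527 times the level of the others (SD, n = 6) and ranked 3rd by mean.

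Capture recurred at the same fragments in all libraries. Of the fragments of chromosome 10, 607 were captured in all 6 libraries, which is 2.11% of them, against 1.46% on the other chromosomes. No library captured 16475 fragments, 57.3% against 63.2% elsewhere. A single library captured 6085 fragments, 21.2% against 20.3% elsewhere, which is nearly the same share. The fragments captured in all 6 had a median length of 4736 bp, and those captured in none 2133 bp. The recurrent fragments had a median distance of 110 kb between neighbours, and never more than 2 were adjacent to each other. On chromosome 10, 8.07% of them were directly followed by another, against 8.36% on the other chromosomes. Both values are above the shares of 2.11% and 1.46%, so recurrent fragments lay next to each other more often than their shares alone give. Without the fragments captured in all 6 libraries, on chromosome 10 and elsewhere, the ratio of chromosome 10 to the others was 1.23.

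Captured fragments had captured neighbours. After a captured fragment the next fragment of chromosome 10 was captured in 22.9%, 30.2% and 21.5% of cases in SS13BN 1 to 3. After a fragment that was not captured it was captured in 11.1%, 18.99% and 9.17%. In SS 1 to 3 the shares were 25.9%, 24.2% and 23.9% after a captured fragment, and 13.5%, 11.5% and 12.5% after one that was not. The ratio of these shares averaged 1.99 ± 0.2501 (SD, n = 6) on chromosome 10 and 2.26 ± 0.312 on the others pooled. It was lower on chromosome 10 in 6 of 6 libraries (exact sign-flip permutation p = 0.03125). The captured share itself was higher on chromosome 10, and its part in the lower ratio was not tested.

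The libraries numbered 3 stood apart from the others in their deposited scores. Chromosome 13, which holds the viewpoint, was listed at 0 throughout in SS13BN 3 and SS 3. On chromosome 10 their highest scores were 5.35 and 6.71, whereas those of the other 4 libraries lay between 9.42 and 11.3. The SD of the scores over chromosome 10 was 1.81 and 2.17 in SS13BN 3 and SS 3, and 2.61 to 3.06 in the others. Without these 2 libraries the ratio of chromosome 10 to the other chromosomes was 1.28, and 4 libraries allow no exact sign-flip permutation p under 0.125.

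Along chromosome 10, capture was above the library's level over most of the length, with a mean over 1 in 166 of 225 windows. Relative capture is from here on the captured share of a region divided by the library's captured share over all chromosomes except 13, and windows are 500 kb long. In 90 windows it exceeded 1 in all 6 libraries, which is 40.0% of them, against 22.9% of windows over all chromosomes. It was below 1 in all 6 libraries in 23 windows. For the 23 and the 166 windows no share over all chromosomes is given, so these counts are descriptions of chromosome 10 only. The median of the windows' means was 1.21, against 0.996 over all chromosomes, and the means ran from 0.120 to 2.97.

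In blocks of 10 Mb the highest capture lay in the middle and near the far end. The block from 60000001 to 70000000 had a relative capture of 1.48, 1.47 and 1.31 in SS13BN 1 to 3, and of 1.51, 1.68 and 1.41 in SS 1 to 3. The block from 100000001 to 110000000 averaged 1.45 ± 0.0995 (SD, n = 6), that from 80000001 to 90000000 averaged 1.37 ± 0.159 and that from 10000001 to 20000000 averaged 1.34 ± 0.1001. Capture below the library's level was found in 2 blocks. The block from 20000001 to 30000000 averaged 0.963 ± 0.0600, and the short last block, from 110000001 to 112200500, averaged 0.542 ± 0.0588. The 6 other blocks lay between 1.17 and 1.29. When expected capture was taken from fragments of like length, the block from 60000001, at 1.42 ± 0.122, and that from 100000001, at 1.33 ± 0.0986, were still the highest.

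**Figure D2:**
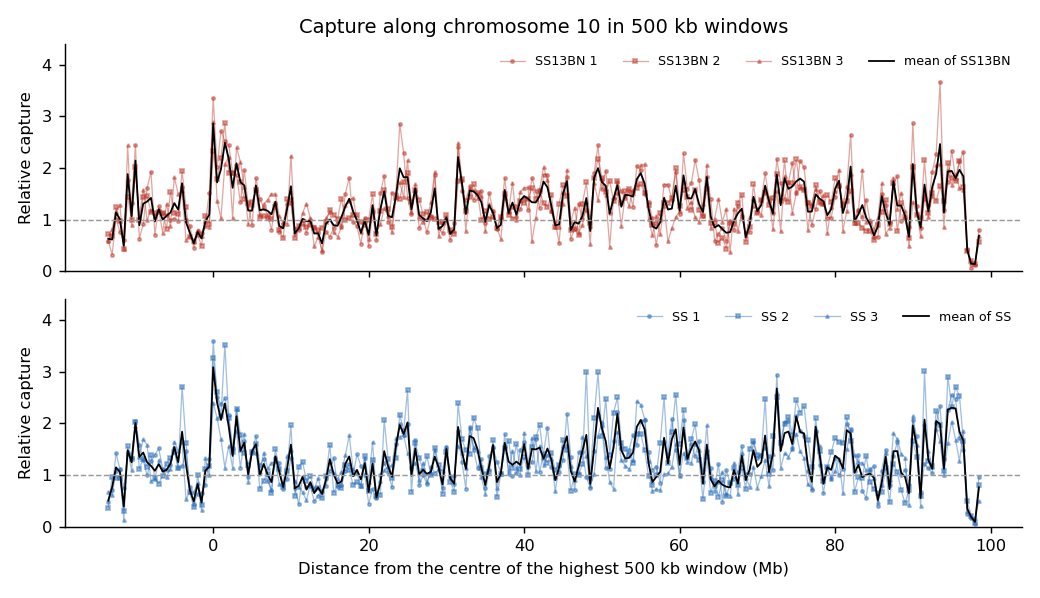
Relative capture of each 500 kb window along chromosome 10 against the distance in Mb from the centre of the highest window, in SS13BN (top) and SS (bottom). Thin lines with symbols are libraries, black lines the mean of 3, and the dashed line marks the library's own level. The highest window at distance 0 averaged 2.97 over all 6 libraries, and the last windows of the chromosome lie near 0 in both strains.

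The strongest contact zone of the chromosome lay between 13500001 and 17000000. Its peak, the window from 13500001 to 14000000, held 126 fragments. Of these, 42, 51 and 32 were captured in SS13BN 1 to 3, and 56, 41 and 36 in SS 1 to 3. Relative capture there was 3.36, 2.32 and 2.90 in SS13BN 1 to 3, and 3.5995, 3.26 and 2.40 in SS 1 to 3. Every library was raised at least 2.32-fold, and the strains overlapped. The mean was 2.97 ± 0.525 (SD, n = 6), or 2.81 ± 0.503 against fragments of like length, and 11 of the 126 fragments were captured in all 6 libraries. The peak was broad. Divided into 100 kb parts, a step chosen after the values were seen, the window gave means of 2.67, 3.09, 3.19, 3.28 and 2.63 from its start to its end. Capture was thus raised over the whole window. It was not raised evenly over the rest of the zone. In the window from 16000001 to 16500000 relative capture averaged 1.49, with 1.03 in SS13BN 3 and 1.14 in SS 3.

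**Figure D3:**
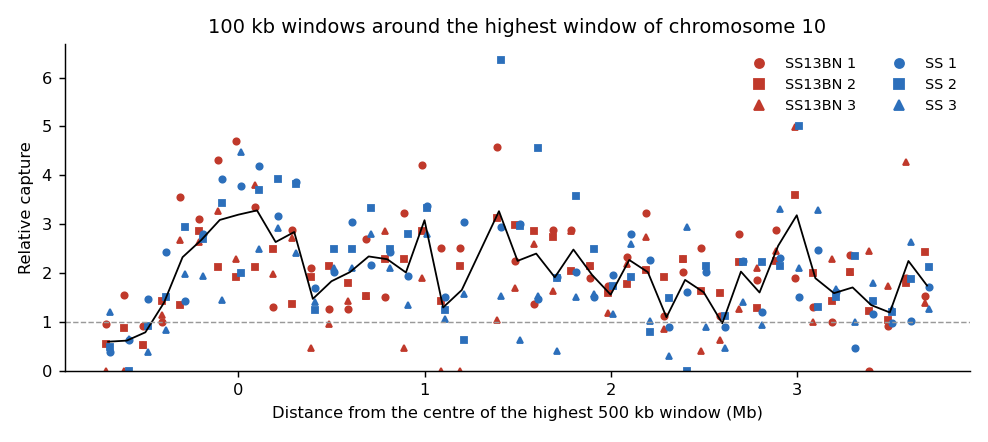
Relative capture in 100 kb windows with at least 10 fragments around the highest 500 kb window, against the distance in Mb from its centre. Symbols are libraries and the black line is their mean, which reaches 3.28 within the central window. The mean lies under 1 at the left edge, from 0.595 to 0.787 in the first 3 windows. It falls under 1 again, to 0.971, in the window from 16300001 to 16400000.

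The deposited scores outlined the same zone. The captured fragments were solved from these scores, so this is another view of the same data and not separate support. Each score compares the captured fragments among 501 neighbours with the captured share of chromosome 10, and 501 fragments spanned a median of 1.95 Mb. The highest score lay between 14564099 and 14680601 in 5 libraries. It was 9.42, 9.47 and 5.35 in SS13BN 1 to 3, and 11.3 and 10.5 in SS 1 and SS 2. In SS 3 the highest score was 6.71 and lay elsewhere, at 68416876, while the zone reached 5.43. Between 13741103 and 16609552, 5 runs of fragments had scores above 3 in all 6 libraries. Capture over this whole span of 2.87 Mb was 2.30, 2.06 and 1.71 in SS13BN 1 to 3, and 2.29, 2.42 and 1.63 in SS 1 to 3, relative to the library. Both libraries numbered 3 were the lowest of their strain.

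Scores above 3 in all 6 libraries occurred in only 2 other places. One was near the far end, from 107514772 to 109575759, where 7 runs were found and relative capture averaged 1.85 ± 0.271 (SD, n = 6). There the peak scores were 5.92, 6.09 and 3.89 in SS13BN 1 to 3, and 7.18, 7.15 and 4.02 in SS 1 to 3. The other was a single run of 9 fragments from 88036299 to 88079533, with peak scores of 3.63, 6.53 and 3.30 in SS13BN 1 to 3, and of 5.69, 5.83 and 3.37 in SS 1 to 3. In all, 530 of the 28731 fragments had scores above 3 in all 6 libraries. No share over the other chromosomes is given for this count, so it does not show whether chromosome 10 is unusual. A run above the threshold describes the 501 fragments around it and not the fragments of the run alone. The count depends on the libraries numbered 3: it was 820 without SS 3 and 1703 without both.

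Single windows were called as contact windows when more fragments were captured than the library's share gives, by a one-sided binomial test adjusted over all windows of the genome, in all 3 libraries of a strain. Chromosome 10 had 6 contact windows of 225 in SS13BN (2.67%, against 1.58% of all 5332 windows) and 8 in SS (3.56%, against 1.86% of all). Both strains shared 3 of them, 1.33% of the windows of chromosome 10 against 0.713% of all windows. The difference between these shares was not tested. The 3 shared windows started at 13500001, 16500001 and 68500001. The binomial test treats fragments as independent. Captured fragments had captured neighbours, as given above, so its p-values may be too small.

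The window from 16500001 to 17000000 had 21, 40 and 24 of its 114 fragments captured in SS13BN 1 to 3, and 26, 26 and 31 in SS 1 to 3. Its relative capture averaged 2.115 ± 0.240 (SD, n = 6), with a range over libraries of 1.85 to 2.40. The window from 68500001 to 69000000 had 27, 41 and 25 of 139 captured in SS13BN 1 to 3, and 35, 25 and 39 in SS 1 to 3. Its relative capture averaged 1.98 ± 0.232, and no library was below 1.69. Both windows were called in all libraries, but narrowly in some. Their binomial adjusted p reached 0.0479 in SS13BN 1 for the first and 0.0430 in SS 2 for the second, whereas the window at 13500001 had 9.22e-05 or less in every library. When expected capture came from fragment length or from chromosome 10 itself, or at a threshold of 0.01, the window at 13500001 alone was left.

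Of the 8 windows called in 1 strain alone, 5 in SS and 3 in SS13BN, most missed the call in the library numbered 3 of the other strain. The highest were those at 86000001, 108500001 and 3500001, called in SS alone, that at 45000001, called in SS13BN alone, and that at 14000001, called in SS alone. Each passed in 5 of 6 libraries. In the windows of SS alone named here the library that missed was SS13BN 3, with binomial adjusted p of 0.468, 0.298, 0.0980 and 0.663. At 45000001 it was SS 3, with 0.266. SS13BN 3 had the fewest captured fragments of chromosome 10, at 3004. SS 3 had 4055, more than SS13BN 1 with 3617 and SS 2 with 3778. Whether depth had a part in the missed calls was not tested. At 86000001, relative capture was 2.18, 1.89 and 1.56 in SS13BN 1 to 3, against 2.95, 2.502 and 2.58 in SS 1 to 3, so the strains did not overlap there. At 3500001 it was 2.44, 2.03 and 1.96 in SS13BN 1 to 3, against 2.05, 2.02 and 1.95 in SS 1 to 3, so they did overlap. Without SS13BN 3 the SS13BN count was 27, and without SS 3 the SS count was 27. The shared count was 7, 5 and 15 without SS13BN 3, without SS 3 and without both. Leaving out a library makes the rule looser. No share over all windows is given for the counts of this paragraph, so they describe chromosome 10 only.

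At 100 kb the highest window of chromosome 10 was a different one. Among 1114 windows of at least 10 fragments, that from 46800001 to 46900000 had 5, 7 and 5 of its 13 fragments captured in SS13BN 1 to 3, and 5, 6 and 6 in SS 1 to 3. Its relative capture of 3.83 ± 0.632 (SD, n = 6) ranked 32nd among windows of this size on all chromosomes. The window from 87800001 to 87900000 followed, with 3.56 ± 0.886 over 17 fragments. These windows were picked from many by their values, hold few fragments and were not tested.

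Capture was lowest at the far end of chromosome 10. The windows from 111000001 to 111500000 and from 111500001 to 112000000 were the only ones called depleted, by the same binomial rule on the lower side. Both were called in both strains. These 2 windows are 0.889% of those of chromosome 10, against 1.89% of all windows called depleted in both strains, 2.23% in SS13BN and 2.68% in SS. In the first, 1, 5 and 2 of 138 fragments were captured in SS13BN 1 to 3, and 3, 3 and 3 in SS 1 to 3. In the second, 2, 4 and 2 of 152 were captured in SS13BN 1 to 3, and 1, 1 and 3 in SS 1 to 3. Relative capture averaged 0.170 ± 0.0516 and 0.120 ± 0.0480 (SD, n = 6).

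The drop at this end was steep. Relative capture was 1.75 ± 0.301 in the window that starts at 110000001, and 0.384 ± 0.0889 in the next, which starts at 110500001. In the last, partial window, from 112000001 on, it was 0.724 ± 0.171 over 50 fragments. Over the last 1.5 Mb it was 0.203, 0.193 and 0.230 in SS13BN 1 to 3, and 0.182, 0.180 and 0.189 in SS 1 to 3. The mean of 0.196 ± 0.0188 was the lowest of the last 1.5 Mb of 20 chromosomes, and the next, chromosome 18, had 0.534 ± 0.0871 (SD, n = 6). The ranges over libraries of these 2 ends did not overlap. Among the first 1.5 Mb of the chromosomes, however, that of chromosome 14 was as low, at 0.218 ± 0.0693 with libraries from 0.139 to 0.319, a range that includes all 6 values of the far end of chromosome 10. The first 1.5 Mb of chromosomes X and 1 followed at 0.343 ± 0.0879 and 0.384 ± 0.130 (SD, n = 6 each). Low capture at an end was thus not particular to chromosome 10. Its own first 1.5 Mb, at 0.815 ± 0.0906, ranked 12th from the lowest of the first ends. The fragments from 110874949 to the end stood at 0.211 ± 0.0265, or at 0.226 ± 0.0297 against fragments of like length.

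**Figure D4:**
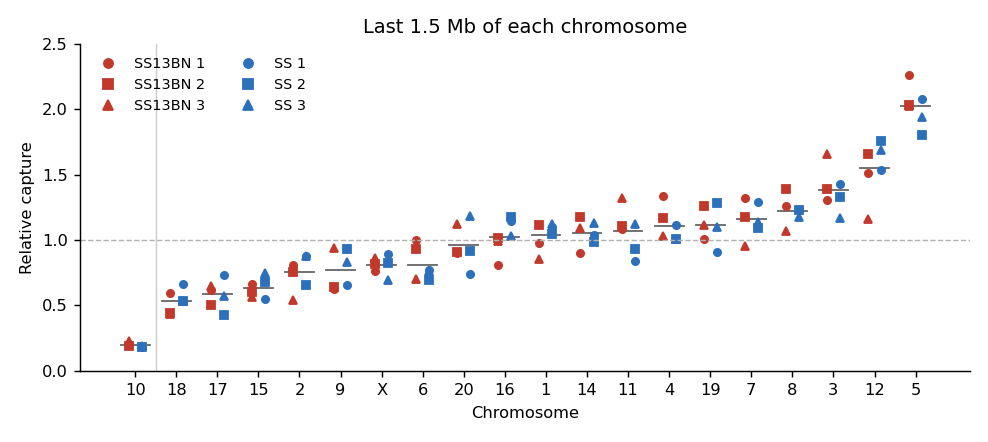
Relative capture in the last 1.5 Mb of each chromosome, with chromosome 10 at the left and the others in rising order. Symbols are libraries and bars the mean of 6, and the 6 libraries of chromosome 10 lie between 0.180 and 0.230.

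The deposited scores were also low within 250 fragments of either end, because positions beyond the chromosome were counted as not captured. This was visible in the rebuilt windows and concerns the rows up to 952515 and from 111294768 on. The lowest score of every library, from -6.63 in SS13BN 3 to -10.1 in SS13BN 2, lay in this last stretch. Among rows with all 501 neighbours the lowest scores still lay at this end, between 111187025 and 111294767, and ran from -5.75 in SS13BN 3 to -9.06 in SS13BN 2. The run of scores under -3 at the first end, from 0 to 676158, lies wholly within padded rows, and relative capture there was 0.558 ± 0.105 (SD, n = 6).

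A second depleted zone lay just before the strongest contact zone. From 10828921 to 12259818, 4 runs had scores under -3 in all 6 libraries. Relative capture over this span was 0.506, 0.453 and 0.552 in SS13BN 1 to 3, and 0.421, 0.466 and 0.543 in SS 1 to 3. All 6 libraries were thus well below their own level, and the strains overlapped. EcoRI fragments were short there, with a median of 1376 bp, and against fragments of like length the mean of 0.490 ± 0.0522 became 0.553 ± 0.0574. Farther on, the contact zone had a median fragment length of 3058 bp and a mean of 2.07 ± 0.332, or 1.90 ± 0.321 on that basis. Another such zone, from 27090457 to 27599404, was shallower, at 0.698 ± 0.138. Of the 1143 fragments with scores under -3 in all 6 libraries, 718 had all 501 neighbours. For these counts, too, no share over the other chromosomes is given.

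Windows with fewer and longer fragments had higher capture along the whole chromosome. Over the 225 windows, Pearson's r between the number of fragments and mean relative capture was -0.51 and Spearman's rho was -0.53. Against fragments of like length, rho was -0.44. This is a correlation across windows of the same 6 libraries, which are not independent replicates, and it is given as a description.

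No window of chromosome 10 passed the test between the strains. Captured fragments in 500 kb windows were scaled to the mean library total, 1 was added, and limma was fitted on the log2 scale to the 5296 windows of all chromosomes with a mean of at least 1. Of the 225 windows of chromosome 10, 0 passed a Benjamini-Hochberg adjusted p of 0.05, as did 0% of all windows. An unadjusted limma p under 0.05 was found for 7 windows of chromosome 10, which is 3.11%, against 3.02% of all windows. The strains did not overlap in 18 windows, 8.00% of those of chromosome 10 against 7.78% of all. The median absolute log2 difference was 0.15 on chromosome 10 and 0.16 over all windows. The median 95% half-width of the difference on chromosome 10 was 0.49 on the log2 scale, before any adjustment over windows. Differences larger than that could also miss the adjusted threshold. The window at 99500001 did so with a log2 difference of 0.73 (limma adjusted p = 0.999).

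The windows with the smallest p were those at 99500001, 92000001 and 43500001. At 99500001, 20, 27 and 20 of 134 fragments were captured in SS13BN 1 to 3, against 18, 9 and 13 in SS 1 to 3. Relative capture was 1.51, 1.16 and 1.70 in SS13BN and 1.09, 0.672 and 0.816 in SS, without overlap. The log2 difference (SS13BN minus SS) was 0.73 (SE 0.24; limma adjusted p = 0.999). At 92000001, 16, 28 and 16 of 124 fragments were captured in SS13BN 1 to 3, against 10, 11 and 14 in SS 1 to 3, with a log2 difference of 0.68 (SE 0.26; limma adjusted p = 0.999). At 43500001, 15, 29 and 14 of 153 were captured in SS13BN 1 to 3, against 29, 22 and 28 in SS 1 to 3. There the log2 difference was -0.51 (SE 0.21; limma adjusted p = 0.999).

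**Figure D5:**
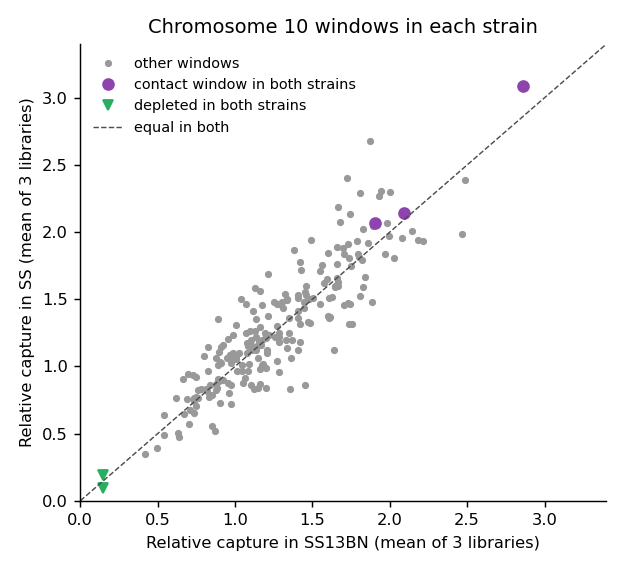
Mean relative capture of each 500 kb window of chromosome 10 in SS13BN (horizontal axis) and SS (vertical axis), each over 3 libraries. Points scatter around the line of equal values, with the 3 windows called as contacts in both strains in the upper part and the 2 depleted windows in the lower left corner.

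None of the shared contact windows passed the test between strains. At 13500001 the captured share was 33.1% ± 7.54 in SS13BN and 35.2% ± 8.26 in SS (SD, n = 3 each), a log2 difference of -0.10 with a 95% half-width of 0.41 after scaling (limma adjusted p = 0.999). At 16500001 the shares were 24.9% ± 8.96 in SS13BN and 24.3% ± 2.53 in SS (SD, n = 3 each), with a log2 difference of -0.03 and a half-width of 0.41. At 68500001 they were 22.3% ± 6.27 in SS13BN and 23.7% ± 5.19 in SS, with -0.11 and 0.40. A p that misses the threshold does not show that the strains are equal, and differences within these half-widths remain possible.

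For chromosome 10 as a whole, the strains differed by less than the spread between libraries. Of all captured fragments outside chromosome 13, 4.799%, 4.64% and 4.51% lay on chromosome 10 in SS13BN 1 to 3, and 4.71%, 4.97% and 4.49% in SS 1 to 3. The means were 4.65% ± 0.145 in SS13BN and 4.72% ± 0.244 in SS (SD, n = 3 each), with an exact two-sided permutation p of 0.7, where the smallest p that 3 against 3 allow is 0.1. In a limma fit over the 20 chromosomes, of which 0% passed, the log2 difference for chromosome 10 was -0.02 with a 95% half-width of 0.06 (adjusted p = 0.953). It turned to 0.02 without SS 2. None of the 12 blocks of 10 Mb passed in a limma fit over 282 blocks, of which 0% passed, and 0 of the 12 had an unadjusted p under 0.05. The block from 60000001 had the smallest p of the 12, with a mean of 1.42 ± 0.0961 in SS13BN and 1.54 ± 0.138 in SS (SD, n = 3 each) and a log2 difference of -0.11 with a half-width of 0.16 (limma adjusted p = 0.973).

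Libraries resembled each other along chromosome 10 about as much across strains as within them. Over the 225 windows, Spearman's rho averaged 0.662 ± 0.0522 (SD) for the 6 pairs of the same strain and 0.658 ± 0.0594 for the 6 pairs of different strain and number. It averaged 0.729 ± 0.0757 for the 3 pairs with the same number in different strains, of which SS13BN 2 with SS 2 was the highest at 0.806. Of the fragments captured on chromosome 10 in SS13BN 2 and in SS 2, 2289 were shared, which is 37.3% of those of SS13BN 2 and 60.6% of those of SS 2. These correlations are across windows and fragments of single libraries and are given as descriptions.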

How the data were processed

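Each library's deposited table lists EcoRI fragments with a score set by the authors. Per the submitters' processing notes, CASAVA 1.8 is the tool named, with no role, and rn5 the build; of the aligner, read filters and scoring program, no name is given in the sources used here. Outside chromosome 13 the deposited score is a z-score: the captured fragments among 501 neighbours, less the number that the chromosome's captured share predicts, over the binomial SD. Solving for captured fragments rebuilt 100% of windows in each library; the solution and the window fit were tested on simulated data. Fragments were assigned to windows of 500 kb by their midpoint. Strains were compared with limma 3.58.1 in R 4.3.3 (eBayes with a mean-variance trend, pseudocount 1, mean of at least 1, Benjamini-Hochberg over all chromosomes except 13, threshold 0.05). No count model was used, since the files hold scores. Fragment length entered as 20 classes of equal size. Other steps used scipy 1.17.1, statsmodels 0.14.6 and matplotlib 3.10.9 in Python 3.11.15. The windows named were shared contact windows (up to 15), depleted windows (up to 5), the 3 with the smallest p between strains where none passed, up to 5 contact windows of 1 strain, the highest and lowest score of each library and all runs of scores past 3 in all libraries; 100 kb windows and chromosome ends were added after the values were seen. Members, lists and rules were chosen with earlier results of these data known.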

Additional observations from a re-analysis of the deposited data

How the results depend on the processing

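The higher capture of chromosome 10 kept its direction under every alternative tried. The ratio to the other chromosomes was 1.20 against fragments of like length, 1.23 without chromosome X, 1.27 without the first and last 3 Mb of every chromosome, 1.17 per Mb in place of per fragment and 1.23 without fragments captured in all 6 libraries, each with an exact permutation p of 0.03125. With single libraries left out it ran from 1.24 to 1.26 and without both libraries numbered 3 it was 1.28; with fewer libraries the smallest p is above 0.05 by construction (0.0625 and 0.125).

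The log2 difference between strains for chromosome 10 ran from -0.0584 to 0.0159 with single libraries left out, the positive value being without SS 2. The count of windows of chromosome 10 that passed between strains was 0 in every fit: with a pseudocount of 0.5, no filter, windows of 250 kb and 1000 kb, scaling to the chromosome total, and each library left out. Unadjusted limma p under 0.05 was found for 3 to 11 windows of 500 kb. With windows of 250 kb the count was 14 and with windows of 1000 kb it was 3, out of unlike numbers of windows. No share over all windows is given beside the counts of unadjusted p in this paragraph, so they describe chromosome 10 only. With replicate number as a block 0 windows passed, 10 had an unadjusted p under 0.05, and the difference for chromosome 10 stayed at -0.02, so the block changed no call. Leaving out both libraries numbered 3 or the fragments captured in all 6, and keeping full windows only, were chosen after seeing the data. The numbers were not taken to pair the libraries, since over all windows not every same-numbered pair had deviations that correlated over 0.1. Their values were 0.0875, 0.130 and 0.0834, and the fit runs over all windows. Every other pair was negative over all windows, from -0.0932 to -0.00753. Over the windows of chromosome 10 alone the same-numbered libraries correlated at 0.154, 0.211 and 0.215, all over 0.1, with 0.0142 or less for every other pair. On chromosome 10 the numbers would thus pass as pairs, and the values with the block, above, apply. In these deviations, compared across strains only, each library correlated best with its own number, a hint from the data and not from the design.

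Counts of contact windows depended on the rule. No share over all windows is given beside the counts below, so they describe chromosome 10 only. For SS13BN, SS and both strains they were 3, 3 and 1 against fragments of like length, 1, 2 and 1 against the share of chromosome 10 itself, 1, 3 and 1 at an adjusted p of 0.01, and 27, 27 and 15 without both libraries numbered 3. With 1000 kb windows SS13BN had 12, SS had 12 and both shared 5, out of fewer windows than the 225 of 500 kb. With single libraries left out the counts of 500 kb windows ran from 6 to 27 in SS13BN, 8 to 27 in SS and 3 to 7 in both. Depleted windows numbered 1 in either strain and in both with 1000 kb windows and at an adjusted p of 0.01; SS had 5 against the share of chromosome 10 itself and 2 to 4 with single libraries left out. Fragments with scores past 3 numbered 530 to 820 above and 1143 to 1355 below with single libraries left out, and 1703 above without both libraries numbered 3. At a score of 2 they were 1755 above and 1954 below, at 4 they were 139 and 486, and with full windows only 718 lay below. The cause of these shifts was not tested, beyond the looser or stricter rule that each setting makes. The limits on depth are the 3004 to 6142 captured fragments per library.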
